A study of Saccharomyces cerevisiae with 18 samples.

Results

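Thiamine (vitamin B1) is made in budding yeast by joining a pyrimidine ring to a thiazole ring, and its diphosphate is the cofactor of pyruvate decarboxylase, transketolase and related enzymes. Cells can also take thiamine up from the medium, and the genes of synthesis and uptake are known to be repressed when thiamine is plentiful and induced when it runs short, through the regulators Thi2, Thi3 and Pdc2. The RNA of 10 such genes, of 5746 in the count table, was followed here in 6 strains. They were a reference with the wild-type form of the ubiquitin-conjugating enzyme Rad6 and mutants of Rad6 or its ligase Bre1. The 10 were taken by systematic name: the synthesis genes THI4, THI6 and THI20, the regulator genes THI2 and THI3, the transporter genes THI7, THI72 and THI73, and PET18 and PHO3. All 10 passed the filter on low counts, with 26 to 7097 reads per gene and library.

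The genes were listed with earlier results of these data known, among them higher THI4, THI73, PET18 and THI2 in the bre1Δ strain and lower THI2 in the P43L strain. The bre1Δ values of all 10 genes and THI2 in P43L are therefore given as a description, with no test. The adjusted p-values in the other comparisons do not allow for the choice of genes. "Rose" and "fell" are used below only where the adjusted p was under 0.05 in edgeR's quasi-likelihood test over all 5630 tested genes.

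All 6 strains were labelled Mat a, ura3-52, his3, trp1Δ and leu2 (alleles 3 and 112), and all carried a plasmid with the TRP marker and a centromere (CEN), which keeps it at low copy. The strain called WT had its chromosomal RAD6 replaced by KanMX and carried wild-type Rad6 with a 3V5 tag on the plasmid, and P43L, P47T and E49K carried the same tagged gene with 1 residue of the beta-turn on the back of Rad6 altered. The rad6Δ strain carried the empty vector pRS314, and so did bre1Δ, in which KanMX replaced BRE1 and RAD6 was the untagged chromosomal copy, so bre1Δ and WT also have Rad6 from different places, with the tag only in WT. Each strain had 3 separately grown cultures (n = 3 throughout) in synthetic medium without tryptophan at 30 °C, and the thiamine content of the medium is not given in the sources used here. The codons of the altered residues lie in RAD6 on chromosome VII, plus strand, chrVII:394106-394138 in R64, shown here as codons 41 to 51 of the reference with codons 43, 47 and 49 in capitals:
RAD6 codons: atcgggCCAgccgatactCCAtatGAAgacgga

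Library totals ran from 5065845 to 11396251 counts, and nuclear noncoding genes took 16.6% to 24.2% of them. RAD6 had 4.29 ± 0.510 CPM in rad6Δ against 149 ± 6.82 in WT, and BRE1 had 1.72 ± 0.436 CPM in bre1Δ against 141 ± 5.67 in WT (SD). Transcripts did not match the mating-type label: MF(ALPHA)1, which encodes alpha-factor, stood at 1122 to 1959.8 CPM over the 18 libraries, while MFA1 plus MFA2, which encode a-factor, summed to 0.14 to 3.31 CPM. On the second principal component P43L replicate 2 (−8.42, against −1.31 and −1.58), bre1Δ replicate 3 (11.2, against −3.68 and 0.308) and P47T replicate 3 (3.71, against 12.4 and 9.96) stood apart from their own strain, a choice of libraries made from earlier results of these data, and counts of called genes below were repeated without them. CPM is the read count scaled by the TMM-adjusted library total. In cultures, less RNA per cell and fewer cells that express a gene cannot be told apart.

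The upstream regions of 4 of the genes are shown because these genes moved most between strains: THI4 and THI73 upward in E49K, and PET18 and THI2 in both directions. Each is the 250 bases before and 50 after the annotated start, which is the ATG in all 10 genes, read 5′ to 3′ on the gene's strand from the R64 reference genome of RefSeq. Capitals mark TATAAA, a form of the core of a TATA box, searched on both strands of the 250 bases. The regions are chrVII:780149-780448 (plus strand) for THI4, chrXII:159456-159755 (minus) for THI73, chrIII:154610-154909 (minus) for PET18 and chrII:701793-702092 (minus) for THI2:
THI4: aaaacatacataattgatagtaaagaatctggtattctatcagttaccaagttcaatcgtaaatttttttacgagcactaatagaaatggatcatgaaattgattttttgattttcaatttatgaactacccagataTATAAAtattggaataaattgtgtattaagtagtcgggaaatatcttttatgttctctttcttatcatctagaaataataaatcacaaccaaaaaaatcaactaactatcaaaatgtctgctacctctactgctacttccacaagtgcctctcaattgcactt
THI73: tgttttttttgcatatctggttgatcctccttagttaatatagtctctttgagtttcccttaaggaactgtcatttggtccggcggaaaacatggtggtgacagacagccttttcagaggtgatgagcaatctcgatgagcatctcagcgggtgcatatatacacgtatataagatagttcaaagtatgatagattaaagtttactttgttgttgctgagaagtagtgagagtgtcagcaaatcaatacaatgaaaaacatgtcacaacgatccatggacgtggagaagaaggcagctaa
PET18: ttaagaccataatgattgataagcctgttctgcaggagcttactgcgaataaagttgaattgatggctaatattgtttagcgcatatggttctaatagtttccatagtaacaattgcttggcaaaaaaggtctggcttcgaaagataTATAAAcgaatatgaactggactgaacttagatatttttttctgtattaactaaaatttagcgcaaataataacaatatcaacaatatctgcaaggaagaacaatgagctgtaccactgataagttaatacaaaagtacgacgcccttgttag
THI2: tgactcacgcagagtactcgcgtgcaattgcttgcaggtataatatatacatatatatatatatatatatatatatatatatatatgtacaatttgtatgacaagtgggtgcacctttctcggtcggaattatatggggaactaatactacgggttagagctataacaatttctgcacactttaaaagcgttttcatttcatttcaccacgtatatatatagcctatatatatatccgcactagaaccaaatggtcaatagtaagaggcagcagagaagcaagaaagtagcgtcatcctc
The motif began at −113 from the start in THI4 and −103 in PET18, on the printed strand, and was not among these letters in THI73 or THI2. It was found in 4 of the 10 upstream regions (also THI6 and THI72, on the opposite strand) and in 43.6% of 6020 protein-coding genes read the same way. A match is a run of letters and was not tested as a site. Only this exact run was searched, so other forms of a TATA box, in THI73 and THI2 as elsewhere, were left unmarked and uncounted.

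THI4 (YGR144W, chromosome VII, 780399 to 781379 in R64, plus strand) encodes the thiazole synthase, an enzyme that gives up sulfur from 1 of its own cysteines and so works for a single turnover. Its RNA stood at 4.82, 6.29 and 5.27 CPM in the WT libraries (28 to 57 reads) and at 33.3, 32.8 and 29.4 CPM in E49K. The E49K and WT libraries did not overlap, and THI4 rose 5.83-fold in E49K (log2 fold change 2.54 ± 0.15 SE, adjusted p = 2.92e-10). In rad6Δ it stood at 11, 10 and 11.6 CPM, again above every WT library, a 1.98-fold rise (0.99 ± 0.17, adjusted p = 6.90e-05). The bre1Δ libraries had 26.1, 29.3 and 38.1 CPM, 5.64-fold the WT level (2.5 ± 0.15), with the highest value in replicate 3, which stood apart. P43L (4.96, 4.29 and 3.85 CPM) and P47T (4.77, 3.54 and 4.48 CPM) had lower means than WT, P43L overlapping WT and P47T lying just below it, and neither difference passed the test (−0.32 ± 0.20, adjusted p = 0.289, and −0.35 ± 0.20, adjusted p = 0.198).

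Among the strains the mean THI4 level ran, from low to high, P47T, P43L, WT, rad6Δ, bre1Δ and E49K, with 7.46-fold between the ends. Within the first 3 no difference passed the test (P43L against P47T 0.03 ± 0.21, adjusted p = 0.932). E49K exceeded rad6Δ (1.56 ± 0.13, adjusted p = 8.45e-09), so the strain with a single residue of Rad6 altered had more THI4 RNA than the strain without Rad6. The E49K and bre1Δ means were 31.8 ± 2.14 and 31.2 ± 6.2 CPM (SD), with overlapping libraries, and this difference was not tested.

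**Figure D1:**
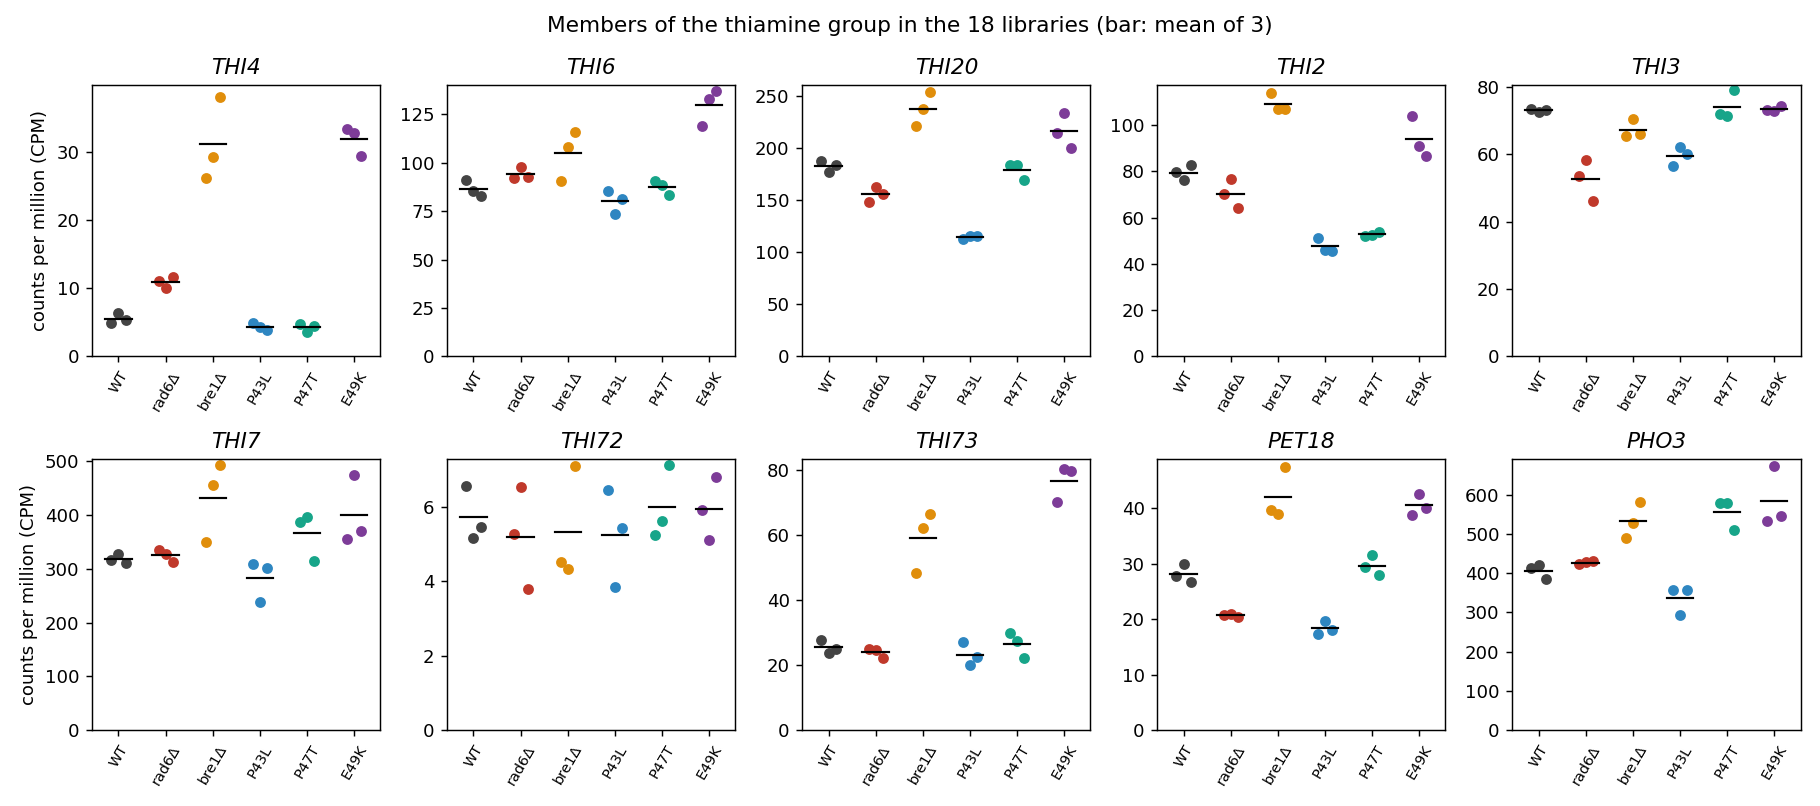
Scaled counts (CPM, vertical axes from 0, a separate scale for each gene) of the 10 genes in the 18 libraries, grouped by strain; each point is 1 library and each bar the mean of 3. THI4 and THI73 stood far above WT in E49K and bre1Δ, THI2 was low in P43L and P47T, THI20 and PET18 were low in P43L, and THI72 was near 5 to 6 CPM in every strain mean.

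The other enzymes of synthesis moved less. THI6 (YPL214C, chromosome XVI, 148569 to 150191, minus strand), whose product joins the rings into thiamine phosphate, had 91.3, 85.5 and 82.7 CPM in WT and 119, 133 and 137 CPM in E49K. All 3 E49K libraries lay above all others of the 18, and THI6 rose 1.5-fold (0.58 ± 0.08, adjusted p = 3.96e-05). In rad6Δ (0.12 ± 0.08, adjusted p = 0.235), P43L (−0.11 ± 0.08, adjusted p = 0.383) and P47T (0.01 ± 0.08, adjusted p = 0.914) THI6 did not pass the test. In bre1Δ it was at 90.5, 108 and 116 CPM, overlapping WT, with a log2 difference of 0.27 ± 0.08.

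THI20 (YOL055C, chromosome XV, 224420 to 226075, minus strand) encodes the kinase that phosphorylates the pyrimidine precursor. It had 188, 177 and 184 CPM in WT and 113, 116 and 116 CPM in P43L, the lowest 3 of all 18 libraries, a fall of 0.67 ± 0.07 on the log2 scale (adjusted p = 1.54e-05). It fell in rad6Δ to 148, 163 and 156 CPM (−0.24 ± 0.07, adjusted p = 0.00883), while P47T libraries at 184, 184 and 169.5 CPM overlapped WT (−0.03 ± 0.07, adjusted p = 0.77). In E49K it rose to 215, 234 and 200 CPM (0.24 ± 0.07, adjusted p = 0.0145), a call lost without WT replicate 2 (adjusted p = 0.0629) or E49K replicate 2 (adjusted p = 0.0913). The bre1Δ libraries had 222, 238 and 254 CPM (0.38 ± 0.07). THI21 and THI22 resemble THI20, with 82.1% and 78.2% of aligned coding bases identical, but every 50-base window of THI20 was unique in the genome, 50 bases being the read length. Neither gene was called in P43L or E49K, THI21 at −0.23 ± 0.11 and 0.16 ± 0.10 and THI22 at −0.21 ± 0.12 and −0.16 ± 0.12 by edgeR (adjusted p = 0.168, 0.251, 0.266 and 0.323).

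Of the regulators, THI2 (YBR240C, chromosome II, 700490 to 701842, minus strand), a zinc cluster activator of the thiamine genes, differed in both directions. It had 79.7, 76.2 and 82.7 CPM in WT, 51.2, 45.9 and 45.5 CPM in P43L and 51.9, 52.5 and 53.8 CPM in P47T. Every library of those 2 point mutants lay below every other library of the 18. The log2 difference from WT was −0.74 ± 0.08 in P43L, and THI2 fell by 0.59 ± 0.08 in P47T (adjusted p = 4.08e-05). The log2 difference of P43L from P47T was −0.15 ± 0.08, given with no test. In rad6Δ, with 70.2, 76.6 and 64.3 CPM, THI2 did not pass the threshold (−0.17 ± 0.08, adjusted p = 0.0796; 0.0256 without rad6Δ replicate 2). It was lower in P47T than in rad6Δ (−0.42 ± 0.08, adjusted p = 0.000175), and the P43L difference from rad6Δ, with no test, was −0.57 ± 0.08.

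In E49K, THI2 rose to 104, 91.1 and 86.7 CPM (0.24 ± 0.08, adjusted p = 0.0235), a 1.18-fold change whose call was lost without WT replicate 1 (adjusted p = 0.0552), WT replicate 2 (0.0958) or E49K replicate 1 (0.14). In bre1Δ it was at 114, 107 and 107 CPM, the highest strain (0.46 ± 0.08). E49K exceeded P47T 1.78-fold (adjusted p = 2.69e-07), and its level was 1.97-fold that of P43L, with no test.

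THI3 (YDL080C, chromosome IV, 310642 to 312471, minus strand) encodes a protein like pyruvate decarboxylase that senses thiamine diphosphate, and it was the regulator with falls only. It fell in rad6Δ from 73.4, 72.4 and 73.1 CPM to 53.4, 58.2 and 46.2 CPM (−0.47 ± 0.08, adjusted p = 4.31e-05). In P43L it fell to 56.4, 62.1 and 60.1 CPM (−0.29 ± 0.08, adjusted p = 0.019), with no overlap with WT. That call was lost without any 1 of WT replicates 1, 2 and 3 or P43L replicates 1 and 3 (adjusted p from 0.0563 to 0.103). P47T (0.02 ± 0.08, adjusted p = 0.869) and E49K (0.01 ± 0.08, adjusted p = 0.935) did not pass the test. The bre1Δ libraries, at 65.4, 70.3 and 66.1 CPM, lay below WT by 0.11 ± 0.08.

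Among the transporter genes, THI73 (YLR004C, chromosome XII, 157934 to 159505, minus strand) moved most. Its product is a permease of the allantoate permease family, proposed to carry organic acids. WT libraries had 27.8, 23.6 and 24.9 CPM and E49K libraries 70.1, 80.4 and 79.5 CPM, so THI73 rose 3.01-fold (1.59 ± 0.12, adjusted p = 1.01e-08). Unlike THI4, it did not pass the test in rad6Δ, at 24.9, 24.6 and 22.1 CPM (−0.09 ± 0.13, adjusted p = 0.576), a difference between the genes that was not itself tested. P43L and P47T overlapped WT (−0.13 ± 0.13, adjusted p = 0.528, and 0.06 ± 0.13, adjusted p = 0.758). In bre1Δ it was at 48.3, 62.1 and 66.3 CPM, above every library of WT, rad6Δ, P43L and P47T and below every library of E49K (1.2 ± 0.13 against WT). By mean, the 4 strains from P43L (23.2 ± 3.61 CPM) through rad6Δ and WT to P47T (26.4 ± 3.89 CPM) could not be put in order.

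THI7 (YLR237W, chromosome XII, 612367 to 614163, plus strand), the main thiamine transporter of the plasma membrane, had the highest level per length of the 3, with 177 ± 4.72 CPM per kb in WT (SD) against 16.2 ± 1.37 for THI73 and 3.19 ± 0.409 for THI72. WT libraries had 317, 327 and 309.8 CPM and E49K libraries 356, 475 and 369.7 CPM (0.33 ± 0.13, adjusted p = 0.049). That call rests on E49K replicate 2, without which the difference was 0.19 (adjusted p = 0.298), and it was lost without any 1 of the 3 WT replicates or E49K replicate 3 and with the replicate number as a block (adjusted p = 0.067). In P43L (309, 239 and 302 CPM), replicate 2 was lowest, a library where noncoding genes took 21.7% of the total, compared with 16.6% and 17.3% in its replicates, whose part in the result was not tested. P43L (−0.17 ± 0.13, adjusted p = 0.39), rad6Δ (0.03 ± 0.13, adjusted p = 0.846) and P47T (0.20 ± 0.13, adjusted p = 0.238) did not pass the test, though P47T did without the 3 libraries that stood apart (0.31, adjusted p = 0.0266). In bre1Δ, THI7 was at 349, 455 and 492 CPM (0.44 ± 0.13).

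THI72 (YOR192C, chromosome XV, 698768 to 700567, minus strand), a close relative of THI7 thought to be a weak thiamine transporter, was near the bottom of the range, with 3.81 to 7.14 CPM over the 18 libraries. Every pair of strains compared overlapped, and its log2 difference from WT ran from −0.18 ± 0.24 in bre1Δ to 0.04 ± 0.22 in E49K (adjusted p = 0.921). The coding bases of THI7 and THI72 were 84.1% identical when aligned, and 98.4% and 95.3% of their 50-base windows were unique in the genome, so a small share of reads could belong to either. The smaller differences seen for THI20 (0.24 in E49K) were about the size of 1 standard error of THI72 and could not be detected at this depth. The largest (−0.67 in P43L) was about the size of 3, and whether it would be detected for THI72 was not tested.

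PET18 and PHO3 are known to respond to thiamine without being enzymes of its synthesis. PET18 (YCR020C, chromosome III, 154012 to 154659, minus strand), related to the last part of Thi20, had 27.7, 29.9 and 26.7 CPM in WT. It rose in E49K to 38.8, 42.5 and 40.1 CPM (0.52 ± 0.09, adjusted p = 0.00018). It fell in rad6Δ to 20.8, 20.9 and 20.4 CPM (−0.44 ± 0.09, adjusted p = 0.00048) and in P43L to 17.4, 19.7 and 18.1 CPM (−0.62 ± 0.10, adjusted p = 0.000552). None of these 3 strains overlapped WT, and P47T did (0.07 ± 0.09, adjusted p = 0.566). The bre1Δ libraries had 39.7, 38.9 and 47.4 CPM (0.56 ± 0.09). PET18 was 1.95-fold higher in E49K than in rad6Δ (adjusted p = 2.83e-08).

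PHO3 (YBR092C, chromosome II, 427698 to 429101, minus strand) encodes an acid phosphatase of the periplasm that splits thiamine phosphates before uptake. It had 414, 419.8 and 385 CPM in WT and rose in E49K (534, 673 and 545 CPM, 0.52 ± 0.10, adjusted p = 0.000509) and in P47T (578, 580.1 and 509 CPM, 0.45 ± 0.10, adjusted p = 0.00194). P43L libraries, at 356, 294 and 358 CPM, lay below WT without passing the test (−0.27 ± 0.10, adjusted p = 0.0667), and rad6Δ lay just above (0.07 ± 0.10, adjusted p = 0.554). In bre1Δ, PHO3 was at 489, 529 and 582 CPM (0.39 ± 0.10). PHO5, the acid phosphatase gene induced when phosphate is low, lies 446 bases upstream on the same strand and shared 86.5% of aligned coding bases with PHO3. Of 50-base windows, 91.3% of PHO3 and 87.7% of PHO5 were unique, so values of this pair are less certain. PHO5 had 19.2 ± 2.29 CPM in WT and 44.6 ± 2.69 in E49K (1.21 ± 0.10, adjusted p = 3.53e-08), and it was not called in P47T (−0.02 ± 0.11, adjusted p = 0.922), where PHO3 rose. PHO5 also rose in rad6Δ (0.73 ± 0.10, adjusted p = 6.64e-06) and in P43L (0.35 ± 0.11, adjusted p = 0.0374), where PHO3 was not called. Its log2 difference in bre1Δ was 0.88 ± 0.11, with no test.

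Counted together against WT, E49K had 8 of the 10 genes up and none down, where 31.3% of all 5630 tested genes were called, 15.2% up and 16.1% down. The E49K and WT libraries did not overlap for the same number, 8 of 10, against 49.9% of all genes. The median log2 difference was 0.43 against −0.007 over all genes, and the exceptions were THI3 and THI72. With library totals in place of TMM factors the count was 5, all up, as it was without WT replicate 2, the lost calls being THI2, THI20 and THI7 each time.

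The rad6Δ strain had 1 rise (THI4) and 3 falls (THI20, THI3 and PET18), where 49.7% of all genes were called, 24.8% up and 24.8% down, so the share of the 10 was near that of all genes. Libraries did not overlap for 6 of 10, against 60% of all genes, and the median was −0.11 against −0.003. P43L had 4 genes lower (THI20, THI2, THI3 and PET18) and none higher, where 12.1% of all genes were called, 5.95% up and 6.18% down. Of the 4, THI2 was known when the genes were listed, and without it the count was 3 of 9. Libraries did not overlap for 6 of 10, THI2 included, against 33.9% of all genes, and the median was −0.28 against −0.017. P47T had PHO3 up and THI2 down, where 27.9% of all genes were called, 14.2% up and 13.7% down. Libraries did not overlap for 3 of 10, against 43.4% of all genes, and the median was 0.03 against −0.011.

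In bre1Δ 8 of 10 were past the threshold, all higher, where 44.4% of all genes were, 22.3% up and 22.1% down. Libraries did not overlap for 8 of 10, against 50.5% of all genes, and the median was 0.42 against 0.001, but these values were known when the genes were listed and nothing is read from them. The 5 comparisons share the 3 WT libraries. Without the 3 libraries that stood apart, the counts were 8 in E49K, 4 in rad6Δ, 4 in P43L, 3 in P47T and 7 in bre1Δ.

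**Figure D2:**
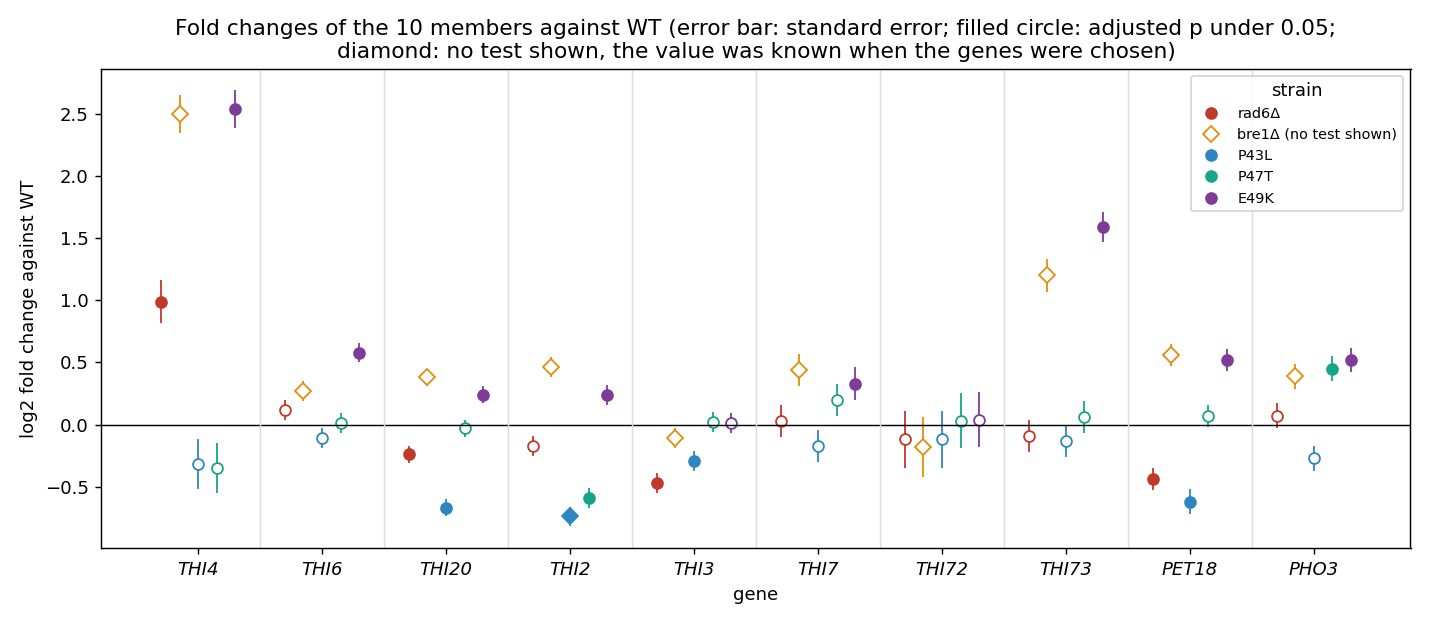
Log2 fold change against WT (vertical axis) of the 10 genes (horizontal axis) in each mutant, with standard errors from the fit over 18 libraries. Filled circles had an adjusted p under 0.05, open circles did not, and diamonds carry no test; THI4 reached 2.54 in E49K and THI2 fell by 0.59 in P47T.

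The mutants were also compared with one another. E49K exceeded rad6Δ in 8 of the 10 genes with none lower, where 36.9% of all genes were called, 18.4% higher and 18.5% lower. The exceptions were THI7 (0.3 ± 0.13, adjusted p = 0.0669) and THI72 (0.15 ± 0.22, adjusted p = 0.605). THI73 differed most (1.68 ± 0.12, adjusted p = 6.59e-10). P43L lay below E49K in 9 of 10, all but THI72, where 25.4% of all genes were called, 12.4% higher and 13% lower, and the 9 include THI2. THI4 was 7.28-fold, THI73 3.29-fold and PET18 2.21-fold lower in P43L than in E49K. P47T lay below E49K in 6 of 10 and above it in none, where 17.8% of all genes were called, 9.41% higher and 8.35% lower, with THI3, THI7, THI72 and PHO3 not passing the test.

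P43L and P47T, which shared low THI2, differed in 5 of 10 genes, all lower in P43L, where 31.0% of all genes were called, 14.7% higher and 16.3% lower. THI20 differed by −0.64 ± 0.07 (adjusted p = 3.24e-06), PHO3 by −0.73 ± 0.10 (adjusted p = 2.19e-05) and PET18 by −0.70 ± 0.09 (adjusted p = 2.21e-05), and THI3 and THI7 were the other 2. With library totals alone 3 of the 5 calls were made. Against rad6Δ, P43L was lower in 5 genes, THI2 among them, and higher in none (49.1% of all genes called, 25.2% lower and 23.9% higher), a count of 3 without P43L replicate 2. P47T was higher in 4 and lower in 2 (52.3% of all genes called, 25.9% higher and 26.4% lower), THI2 and THI4 being the lower ones. The rad6Δ strain lay below bre1Δ past the threshold in 8 genes and above it in none (20.8% of all genes past it, 11.9% lower and 8.92% higher). With library totals alone the count was 5. The bre1Δ values were known when the genes were listed, so these counts are a description and nothing is read from them. PET18 had 20.7 ± 0.252 CPM in rad6Δ and 42 ± 4.7 in bre1Δ.

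Other genes of the pathway were counted as a list of 16, of which 15 passed the count filter, the exception being THI5 with at most 8 reads in a library. Of the 15, 8 rose in E49K and none fell (median log2 difference 0.39), where 31.3% of all genes were called. In rad6Δ 8 rose and none fell (median 0.51), where 49.7% of all genes were called, 24.8% of all genes up and 24.8% down. The share called in either direction was near that of all genes, while every call of the list was a rise. In P47T 2 rose (THI80 and NRT1) and SNZ1 fell (median 0.12), where 27.9% of all genes were called, and in bre1Δ 9 were past the threshold, all higher (median 0.56), where 44.4% of all genes were. THI11 and THI13, copies of the gene for the enzyme that makes the pyrimidine precursor, were read at 1 to 8 counts in WT. THI13 rose from 3, 4 and 1 counts to 24, 27 and 14 in rad6Δ (2.85 ± 0.39, adjusted p = 4.59e-06) and to 11, 16 and 15 in E49K (2.08 ± 0.43, adjusted p = 0.00129), and such copies are so alike that reads could be split among them. SNZ1 and SNO1, which encode the synthase of pyridoxal phosphate, a substrate of that enzyme, rose more in rad6Δ (1.58 ± 0.07 and 1.63 ± 0.10) than in E49K (0.26 ± 0.07 and 0.59 ± 0.11), and for both E49K was below rad6Δ by test (adjusted p = 6.61e-12 and 3.11e-08). Both SNZ2 and SNZ3, neighbours of the pyrimidine genes near chromosome ends, rose in the 2 strains.

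Of the fixed genes of that list, THI80, the pyrophosphokinase that makes thiamine diphosphate, rose in E49K (0.39 ± 0.08, adjusted p = 0.00189) and P47T (0.32 ± 0.09, adjusted p = 0.00859). The regulator gene PDC2 rose in rad6Δ, from 60.3 ± 5 to 85.2 ± 0.347 CPM (0.51 ± 0.09, adjusted p = 6.05e-05), and was not called in E49K (0.13 ± 0.09, adjusted p = 0.253). TPC1, the mitochondrial carrier of thiamine diphosphate, was called in none of the comparisons with WT. In P43L, where 12.1% of all genes were called, SNO2 and SNO3 were the calls of the list, both lower (−1.5 ± 0.34 and −1.04 ± 0.29, adjusted p = 0.00906 and 0.0249), with 10 to 15 reads per library, and the count was 1 or 0 when any 1 library other than P43L replicate 2 was left out. NRT1, a relative of THI7 that carries nicotinamide riboside, rose in rad6Δ, P47T and E49K (0.49 ± 0.09, 0.28 ± 0.09 and 0.39 ± 0.09).

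Enzymes that use thiamine diphosphate formed a second list of 10, all tested. In E49K 5 rose (PDC1, PDC5, PDA1, PDB1 and TKL1) and KGD1, of the oxoglutarate dehydrogenase, fell (−0.28 ± 0.08, adjusted p = 0.0109), where 31.3% of all genes were called. PDC5, a pyruvate decarboxylase gene known to be induced when thiamine is short, rose from 34.3 ± 3.40 to 57.9 ± 1.89 CPM (0.76 ± 0.15, adjusted p = 0.00115). In P47T 5 rose (PDB1, PDA1, PDC1, TKL1 and ARO10) and 2 fell (PDC6 and KGD1), where 27.9% of all genes were called, and in bre1Δ 5 were higher and 1 lower past the threshold, where 44.4% of all genes were. In rad6Δ PDC6 (1.56 ± 0.21) and TKL2 (0.59 ± 0.16) rose and ARO10, which acts on keto acids of aromatic amino acids, fell (−0.95 ± 0.09, adjusted p = 3.68e-08), 3 of 10 where 49.7% of all genes were called. PDC1, PDC5 and PDC6 are alike in sequence, and their reads may be split. The count in rad6Δ was 8 in place of 3 when only rad6Δ and WT entered the fit or when the 3 libraries that stood apart were left out. In P43L, where 12.1% of all genes were called, the 2 calls (PDA1 and PDB1) were 0 with library totals alone or with the replicate number as a block, and 5 without the libraries that stood apart.

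**Figure D3:**
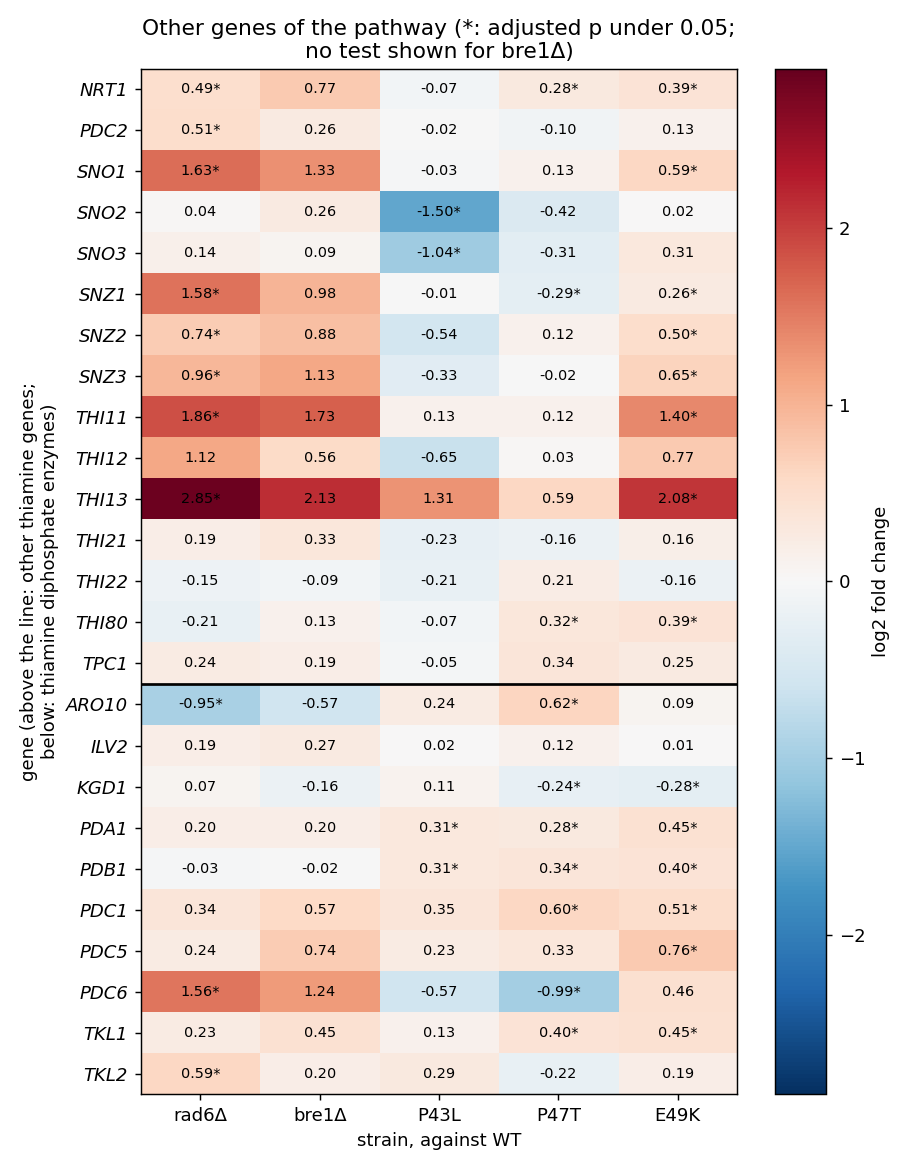
Log2 fold change against WT of the other thiamine genes (above the line, 15 tested) and of enzymes that use thiamine diphosphate (below, 10), by strain. Colour and printed number show the same value, and an asterisk marks an adjusted p under 0.05. The bre1Δ column carries no asterisks because no test is shown for it. The values reach 2.85 for THI13 in rad6Δ, and rad6Δ, bre1Δ and E49K are mostly red above the line.

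The neighbours of the members were read for comparison. None of the 10 genes overlaps another annotated gene, and none has an intron. The nearest upstream gene of THI4 and of THI20, a tRNA gene in each case, and that of THI7, YLR236C, had no tested value. For the others it was PHO5 for PHO3, MAK31 for PET18, SSL1 for THI73, LEA1 for THI6, VVS1 for THI2, MRK1 for THI3 and YOR192C-C, 3420 bases away, for THI72. Apart from PHO5, none of these was called in E49K (log2 differences from −1 to 0.16, adjusted p from 0.112 to 0.458). MAK31, which lies 170 bases from PET18, was at 0.15 in E49K, where PET18 rose, and at 0.54 in rad6Δ, where PET18 fell. It was at −0.19 in P43L, where PET18 also fell, and at 0.33 in bre1Δ, where PET18 was higher. MRK1 was at −1.4 in rad6Δ and at −0.07 in P43L, and THI3 fell in both. For the neighbours other than PHO5, adjusted p-values were read in E49K only, and whether neighbour and member move together was not tested.

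Genes most like THI4 and THI2 were ranked by the root mean square difference of log2 CPM, each gene centred on its mean over the 18 libraries, among 5115 other genes whose mean level reached 10 CPM. Nearest to THI4 were the riboflavin transporter gene MCH5 (0.672), the aquaporin gene AQY2 (0.748), the amino acid permease gene DIP5 (0.76), YLL053C (0.781) and CSS1 (0.783), with THI4 itself varying by 1.22 around its mean. These distances are more than 1 in 2 of that spread, so no gene of the ranking followed THI4 closely; MCH5 was at 146 CPM in bre1Δ and 65.7 CPM in E49K, while THI4 was alike in both. THI73, at 0.675, would have ranked second. Nearest to THI2 were the cell wall protein gene NCW2 (0.187, against 0.432 for THI2 around its own mean), SRL3 (0.26), the antizyme gene OAZ1 (0.268), MIG3 (0.278) and SVS1 (0.28). THI20, at 0.238, would have ranked second there. The ranking is a description, and the points share libraries and strains.

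**Figure D4:**
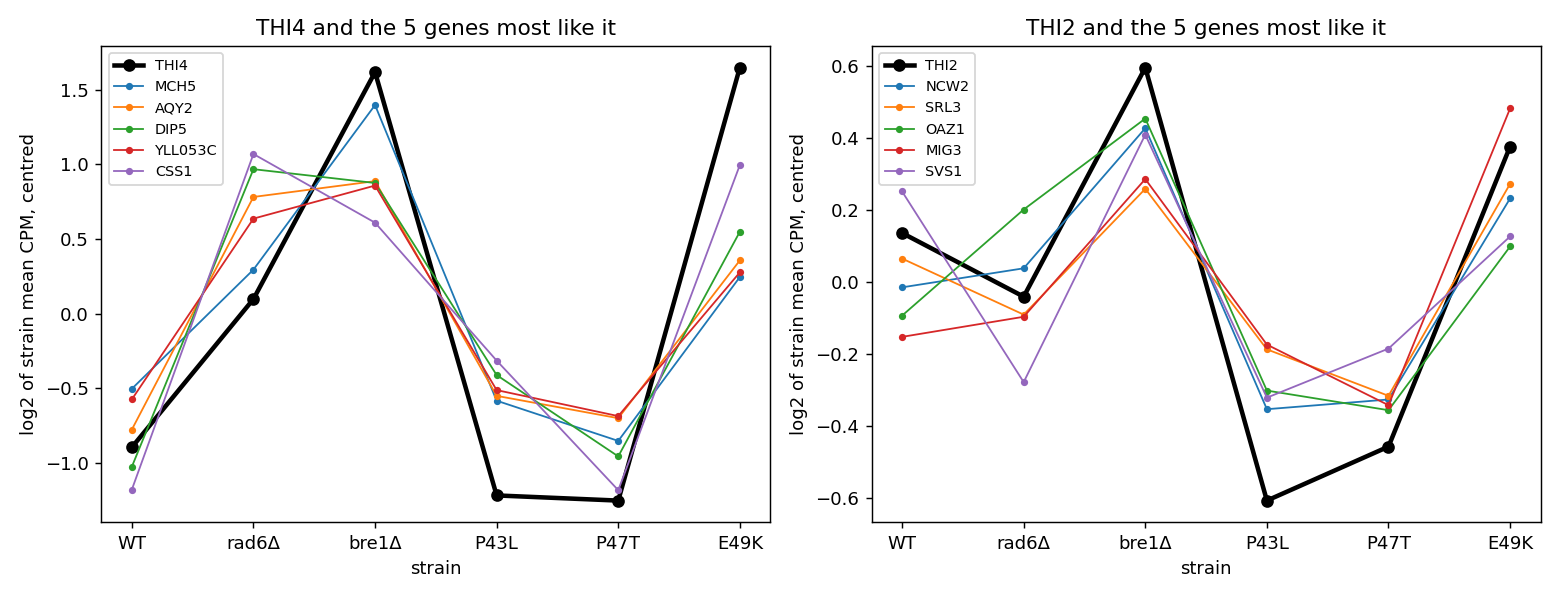
Log2 of the strain mean CPM, centred over the 6 strains (vertical axis), of THI4 with the 5 genes most like it (left) and THI2 with the 5 most like it (right), by strain. THI4 is lowest in P43L and P47T and highest in bre1Δ and E49K, above the other 5 in E49K, and THI2 is lowest in P43L.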

How the data were processed

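The authors deposited raw counts, whole-number reads per gene and library, and regularized log2 values (rlog). The submitters' processing notes name DESeq2 1.20, featureCounts 1.6.3, STAR 2.6.1b and cutadapt 1.16, and the builds sacCer3 and R64. How strand and multiply mapped reads were handled is not given in the labels or headers. Reads were single, 50 bases, from a stranded kit with poly(A) selection, per the labels' protocols. The table held 5746 genes and 3 blank lines.

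Genes were filtered with filterByExpr (5630 kept, 116 removed), scaled with TMM (factors 0.896 to 1.07) and fitted in 1 quasi-likelihood model over 18 libraries (edgeR 4.0.16, R 4.3.3, 12 residual degrees of freedom), tested two-sided in 12 comparisons and adjusted by Benjamini-Hochberg within each, threshold 0.05. The standard error is the log2 fold change over the square root of its F. The model was also run on simulated counts that gave every gene the same dispersion, a simpler setting than these data. The outcome is not reported here. Replicates differed by more than counting noise (chi-square per degree of freedom 6.36 to 40.7). The deposited log2 (rlog) values had the sign of the count fit in 26 of 26 called member differences against WT. These include the bre1Δ differences and THI2 in P43L. The rlog values come from the same libraries, so this is a check on reading the data and not independent evidence. Members and lists were chosen with earlier results of these data known. All 10 members are named, with fixed sets from both lists and other list genes where called. Alternatives were other scalings, no filter, DESeq2 1.42.0, 2 strains only, a replicate block and leaving out libraries. The p-values rest on the spread between cultures of a strain, estimated from all 18 libraries together, with 3 cultures for each strain. Coordinates and sequences are RefSeq's R64, read with Biopython 1.88. Replicate numbers met the pairing criterion (every pair's correlation of deviations over 0.1) for P47T against rad6Δ (0.203, 0.194 and 0.208) and for no other comparison.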

Additional observations from a re-analysis of the deposited data

How the results depend on the processing

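Over 700 repeats of the 50 member differences against WT, 649 kept direction and side of the threshold. Of the others, 25 lost a call, 3 gained a call and 23 turned sign. The repeats share libraries, and only 26 of the 50 differences were called in the main fit, so many were kept by staying uncalled. The bre1Δ differences and THI2 in P43L are included. With library totals alone the median of all genes moved to −0.114 in bre1Δ, −0.128 in P47T and −0.103 for P47T against rad6Δ, and members called went from 8 to 5 in E49K against WT, from 8 to 5 for rad6Δ against bre1Δ and from 5 to 3 for P43L against P47T. It turned the sign of values that had not passed the test: in P47T, THI6 (−0.10), THI3 (−0.10), THI72 (−0.09), THI73 (−0.06) and PET18 (−0.04), and in E49K, THI3 (−0.04) and THI72 (−0.02). Without the 3 libraries that stood apart, a choice made after seeing the data, THI20 (0.01), THI3 (−0.02) and THI72 (−0.09) in P47T and THI72 in P43L (0.05) turned sign, none past the threshold. Leaving out 1 library gave 5 to 7 members in E49K against WT, 4 to 5 in rad6Δ, 3 to 4 in P43L, 2 in P47T and 6 to 8 in bre1Δ, and 3 to 5 for P43L against rad6Δ. It turned sign in 12 of 300 repeats: in P47T for THI6 (−0.02 to 0.06), THI20 (−0.06 to 0.01), THI3 (−0.03 to 0.05), THI72 (−0.10 to 0.16) and THI73 (−0.03 to 0.16), and for THI72 in rad6Δ (−0.35 to 0.04), P43L (−0.29 to 0.05) and E49K (−0.08 to 0.17). Same-numbered cultures deviated together in all 3 pairs in 1 of the 12 comparisons (correlations over all comparisons from −0.23 to 0.285, above 0.1 in 10 of 36 pairs). That was P47T against rad6Δ (0.203, 0.194 and 0.208), and there the fit with the number as a block called 6 members, as without it. A fit with the replicate number as a block lost 1 member call, THI7 in E49K (0.33, adjusted p = 0.067), and left 7 members called there. DESeq2 and its size factors, no filter and nuclear open reading frames only changed no member call against WT. The cause of each move was not tested. Low depth limits THI72 and the THI5 family.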
